A study of Mus musculus with 4 samples.

Results

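The 37 genes described here encode the enzymes that build cholesterol and long-chain fatty acids, the proteins that switch those enzymes on and off, and carriers and sensors of sterols. They were taken by symbol from a list, and all 37 were found among the 24340 genes of the expression table. They fall into 5 branches: 7 genes for the mevalonate steps, 11 for the squalene and sterol steps, 5 for control by sterol regulatory element binding proteins (SREBPs), 6 for sterol transport and the liver X receptor (LXR) response, and 8 for fatty acid synthesis and desaturation. Across the 4 libraries, 36 of the 37 had a mean of at least 1 FPKM (fragments scaled by transcript length and sequencing depth), the level required here to call a gene measured; Abca1, with a mean of 0.909 FPKM, did not. Counts below are over those 36 genes, with Abca1 given apart, except where 37 genes are named and in counts from the authors' deposited table.

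The RNA came from C57BL/6 mouse bone marrow cells that carry the activated kinase JAK2V617F and were sorted for absent lineage markers and present Kit, the stem cell factor receptor. Both genotypes share JAK2V617F: Tet2+/+ cells are called wild type here and Tet2-/- cells knockout, and each was sampled without drug and after the extracted cells were given ruxolitinib, a drug that blocks JAK1 and JAK2. The series describes its Tet2 loss as conditional and limited to blood-forming cells. Each of the 4 groups is 1 library, so no spread within a group is known, no test was made, and every difference compares a pair of libraries. In the expression table the treated libraries are marked only by the suffix R, which was read as ruxolitinib because each such name fits the title of 1 treated sample. The labels used here give no drug dose or time, no number of mice behind a library, no Cre line and no animal sex or age.

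Tet2 itself stood at 4.69 FPKM untreated and 5.05 treated in wild type, and at 3.62 and 4.39 in knockout, a value for the whole gene that cannot show a deleted exon. Steps between the lowest values placed the depth at about 44200000 to 54700000 fragments a library, or 44.2 to 54.7 fragments for 1 FPKM on 1 kilobase. The female transcript Xist was at 53.2 and 62.2 FPKM in the knockout libraries and at most 0.0309 in wild type, while the Y-linked Ddx3y was at 21.3 and 18.7 in wild type and at most 0.0288 in knockout, so genotype and sex cannot be told apart. Of 10 mast cell markers 9 were measured, with summed levels of 31774 and 35178 FPKM in wild-type cells, against 21828 and 25980 in knockout. Most of that was Cma1, Fcer1a and Srgn, which were lower in knockout in both drug states, as were Kit, Ms4a2 and Gata2. Tpsb2, Mcpt4 and Hdc had knockout log2 ratios of -0.02, -0.13 and -0.95 without drug, but of 0.18, 0.02 and 0.24 with it. Cpa3, a defining marker of that list, was listed at 0 in every library. Of 7 stem and progenitor markers 5 were measured, with sums of 1292 and 1514 FPKM in wild-type cells, against 941 and 1258 in knockout. Ly6a, the most abundant, was at 938 and 1033 FPKM in wild type and at 583 and 749 in knockout. Cd34 was at 307 and 431 FPKM in wild type and at 317 and 465 in knockout. Mecom and Meis1 were lower in knockout in both drug states and Hlf was higher, while Flt3 was listed at 0. All 3 basophil markers were measured, with sums of 412 and 363 FPKM in wild-type cells, against 562 and 548 in knockout. Mcpt8 was at 94.4 and 95.6 FPKM in wild type and at 277 and 254 in knockout. Prss34 was at 0.266 and 0.548 in wild type and at 11.3 and 12.8 in knockout, so it counted as measured only through knockout. Cd200r3 was at 318 and 267 in wild type and at 274 and 281 in knockout. Of 7 granulocyte and monocyte markers 2 were measured, with sums of 93.2 and 113 FPKM in wild-type cells, against 31.6 and 36.2 in knockout. Ctsg made up most of these sums, at 90.4 and 108 FPKM in wild type and at 27.1 and 27.3 in knockout. Lyz2, the other measured one, was at 2.41 and 4.15 FPKM in wild type and at 2.36 and 6.61 in knockout. Mpo was at most 0.0445 FPKM in wild type and at 1.13 and 1.31 in knockout. Of 4 megakaryocyte markers 2 were measured, with sums of 669 and 750 FPKM in wild-type cells, against 447 and 537 in knockout. Most of that was Itga2b, at 442 to 743 FPKM. Erythroid markers summed to at most 7.96 FPKM, and no B, T or NK cell marker exceeded 0.591. The adipocyte list summed to at most 0.163 FPKM and the stroma list to at most 0.101. The JAK2 and STAT5 target genes Cish, Pim1, Socs1, Socs2, Socs3 and Osm were all at least 1.5-fold lower with drug in both genotypes. Of all measured genes, 2.64% were in wild type and 2.20% in knockout. The 12 proliferation genes were all higher in knockout, with a median log2 ratio of 0.68 without drug and 0.57 with it. Of all measured genes, 49.1% had a knockout ratio below 0 without drug and 49.3% with it.

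Cells build cholesterol from acetyl-CoA. The mevalonate steps make isoprenoid units, squalene is joined from them, and a long chain of enzymes then closes and trims the sterol rings. When sterols in the endoplasmic reticulum run low, the escort protein Scap carries SREBP precursors to the Golgi for cleavage and the freed factors enter the nucleus and switch on these enzymes; when sterols are plentiful, the Insig proteins hold Scap back. Oxidised sterols activate LXR, which raises the exporters Abca1 and Abcg1 and the ubiquitin ligase Mylip. In growing blood cells the pathway supplies new membrane.

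In both genotypes the ruxolitinib library held a lower summed level of the sterol synthesis enzymes than its control, and in both drug states the knockout library held a higher one than wild type. In wild type, 31 of 36 measured members had a log2 ratio below 0 for drug against control, against 47.7% of all 10471 measured genes, with a median of -0.22 beside 0.01 for all genes. Ratios are log2 of FPKM + 1, which understates changes of low genes. The genes at least 1.5-fold lower were 3, namely Insig1, Abcg1 and Scd1 (2.64% of all genes), and 0 were as far higher (1.05% of all genes). With values rescaled to the same sum in each library (TPM), Insig1 stood at -0.57, short of the rule at 0.585, which left 2 lower. In knockout, 28 of 36 were below 0 (48.7% of all genes), with a median of -0.25; 3 were at least 1.5-fold lower, namely Mvd, Abcg1 and Scd1 (2.20% of all genes), and 0 higher (1.67%). Mvd, at -0.58 with TPM values, then also missed the rule, which left 2 lower. Most members thus had a ratio below 0 that was smaller than the 1.5-fold rule.

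The authors' deposited table gives q-values that compare single libraries and hold no spread between animals. At a q-value under 0.05 it lists 13 of the 37 genes as lower with drug in wild type, where 4.13% of its tested genes are, and 0 as higher (2.39%). In knockout it lists 10 as lower (4.73% of tested genes) and 0 as higher (4.85%). Hmgcs1, Mvd, Idi1, Fdps, Hsd17b7, Abcg1, Fasn, Scd1 and Scd2 are listed as lower in both genotypes.

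For knockout against wild type without drug, 9 of 36 members had a log2 ratio below 0, against 49.1% of all genes, and the median was 0.16. Acat2, Fdps and Elovl6 were at least 1.5-fold higher (3 of 36, 3.88% of all genes), and Abcg1 as far lower (1 of 36, 5.06% of all genes). With drug, 7 of 36 were below 0 (49.3% of all genes), the median was 0.15, Elovl6 alone was at least 1.5-fold higher (2.97% of all genes) and 0 were as far lower (3.34%). The lower counts lie near the shares of all genes, and the higher counts are of 3 genes and 1 gene. In the authors' deposited table, 7 members were higher at a q-value under 0.05 without drug (9.37% of tested genes) and 3 lower (9.68%); with drug 8 were higher (7.39%) and 2 lower (6.21%). With TPM values the median of all measured genes moved to 0.15 without drug and 0.13 with drug, and that of the members to 0.31 and 0.28. On that scale the split without drug was 4 higher and 0 lower, in place of 3 and 1, beside 8.08% and 4.04% of all genes. With drug it was 5 higher and 0 lower, in place of 1 and 0, beside 5.88% and 2.81% of all genes. The members below 0 were then 4 of 36 without drug and 3 of 36 with it, against 29.4% and 27.4% of all genes.

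**Figure D1:**
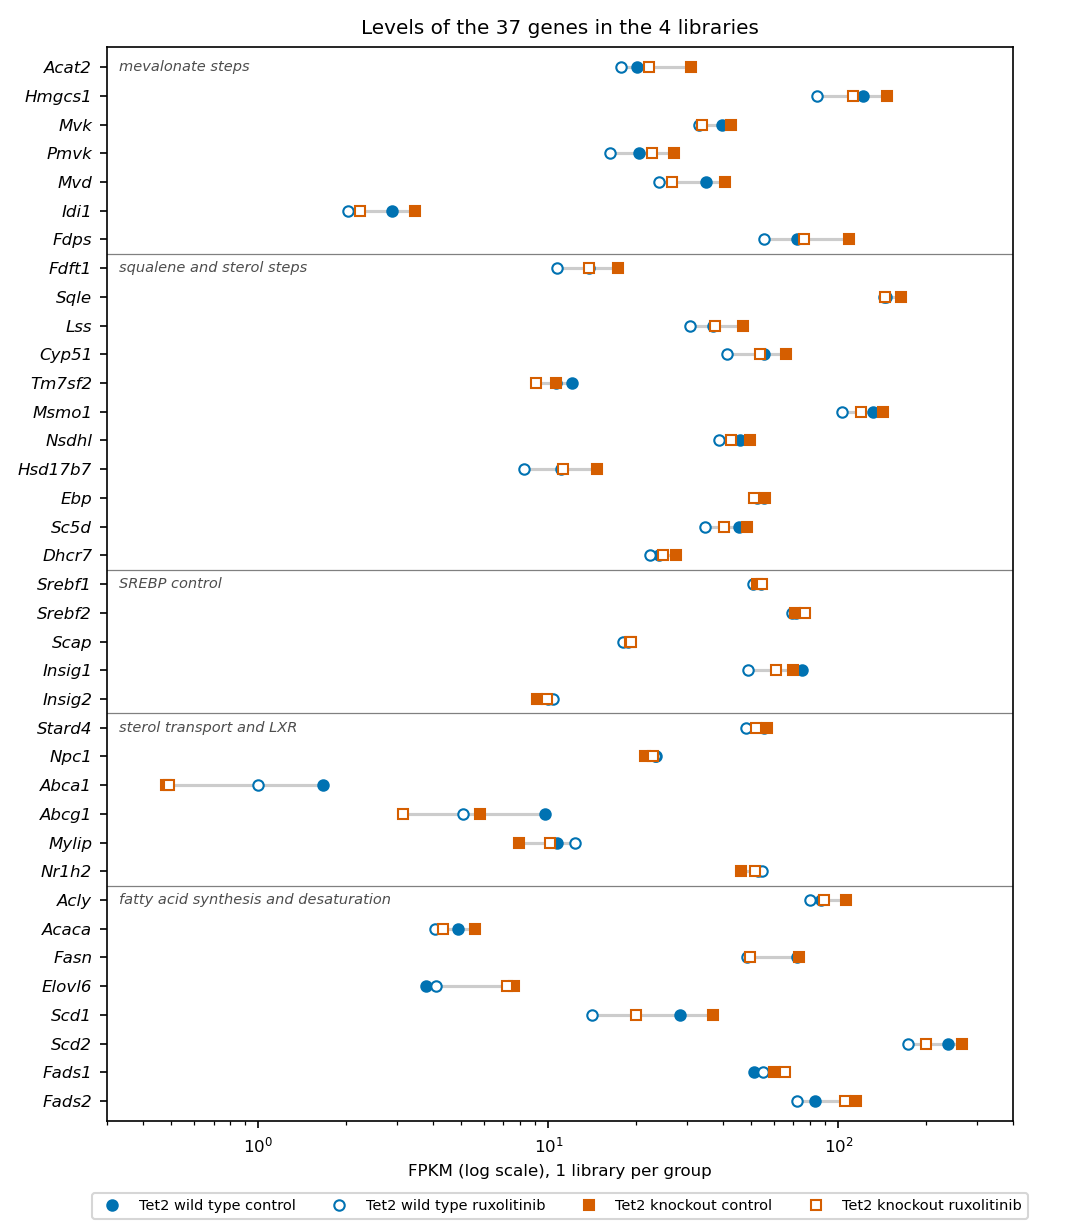
Level of each of the 37 genes in FPKM on a log axis, 1 point per library: circles are wild type, squares knockout, filled points untreated and open points ruxolitinib, and grey lines join the lowest and highest library. In the top 2 blocks the filled square (untreated knockout) is rightmost for 17 of 18 enzymes and the open circle (treated wild type) leftmost for 16 of 18.

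The 7 mevalonate genes had the same order at both ends, as the plot of levels by gene shows. All 7 were highest in untreated knockout cells and lowest in treated wild-type cells, an order that 20.4% of all measured genes had. Their summed level was 312 FPKM untreated and 233 treated in wild type, and 402 and 296 in knockout, so the treated library held 74.7% of its control in wild type and 73.8% in knockout. The median log2 ratio for drug was -0.36 in wild type and -0.46 in knockout, and that for knockout was 0.28 without drug and 0.31 with drug.

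Hmgcs1 (chromosome 13, 119690351 to 119708260, GRCm38), the synthase that makes HMG-CoA and the most abundant gene of the branch, stood at 121 FPKM untreated and 84.2 treated in wild type, and at 148 and 112 in knockout. Both treated libraries lay below both untreated ones. The share of all measured genes with such a separation by drug or genotype, here and for genes below, was not counted. The log2 ratio of Hmgcs1 for drug was -0.52 in wild type and -0.39 in knockout, and the authors' deposited table gives q-values of 0.00139 and 0.0239. Mvd, which decarboxylates mevalonate pyrophosphate, showed the same separation, at 34.8 FPKM untreated and 24.0 treated in wild type and 40.7 and 26.6 in knockout. Its log2 ratio for drug was -0.52 in wild type and -0.60 in knockout. Idi1, the isomerase that makes the reactive isoprenoid unit, was the lowest gene of the branch, at 2.88 and 2.03 FPKM in wild-type cells, against 3.47 and 2.25 in knockout; again the treated libraries were the lower pair.

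Among the 18 sterol enzymes Fdps and Acat2 had the largest knockout ratios without drug. Fdps, which makes farnesyl pyrophosphate, was at 72.1 FPKM untreated and 55.2 treated in wild type and at 109 and 76.4 in knockout. Untreated knockout cells stood well above the other 3 libraries, and the log2 ratio against wild type was 0.59 without drug and 0.46 with it. Acat2, a thiolase that joins acetyl-CoA units, was at 20.2 and 17.7 FPKM in wild type and at 31.0 and 22.2 in knockout. Its knockout ratio was 0.59 without drug and 0.31 with it, and its drug ratio was -0.18 in wild type and -0.47 in knockout. The kinases Mvk and Pmvk were lower with drug by log2 ratios of -0.25 and -0.31 in wild type and -0.32 and -0.24 in knockout.

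All 11 squalene and sterol genes also had drug ratios below 0 in both genotypes, between -0.42 and -0.03 in wild type and between -0.36 and -0.12 in knockout. With TPM values Sqle in wild type turned to 0.01, and the other 10 stayed below 0. Summed levels were 578 FPKM untreated and 497 treated in wild type and 644 and 549 in knockout. None reached 1.5-fold in any of the 4 comparisons of library pairs, beside 1.05% to 5.06% of all measured genes per direction and comparison. The median log2 ratio for drug was -0.25 in both genotypes.

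The enzymes of this branch differed in size of ratio. Sqle, the epoxidase that adds oxygen to squalene, was the most abundant, at 146 FPKM untreated and 144 treated in wild type and at 165 and 145 in knockout; 3 of its 4 libraries lay within 3 FPKM of each other. Cyp51, which removes a methyl group from lanosterol, was at 55.5 and 41.2 FPKM in wild type and at 65.9 and 53.7 in knockout, with drug ratios of -0.42 and -0.29. Hsd17b7, a ketoreductase of the sterol steps, was at 11.1 and 8.23 FPKM in wild type and at 14.7 and 11.3 in knockout, and its knockout ratio was 0.38 without drug and 0.41 with drug. The treated wild-type library was the lowest for both genes. Lss, which closes the rings, Msmo1, a methyl oxidase, and Sc5d, a desaturase, had drug ratios of -0.25, -0.34 and -0.38 in wild type and -0.32, -0.25 and -0.25 in knockout.

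Among the late steps, Ebp, the isomerase that shifts a ring double bond, lay between 51.3 and 56.0 FPKM in the 4 libraries, and Dhcr7, which makes cholesterol from its last precursor, between 22.4 and 27.7. Tm7sf2, a sterol reductase, was the exception to the knockout pattern: it was at 12.1 and 10.6 FPKM in wild type and at 10.6 and 9.06 in knockout, the highest library being untreated wild type. Its exons overlap those of Vps51, at 12.3 to 14.5 FPKM, so reads near the overlap could belong to either gene. Fdft1, the squalene synthase, overlaps Ctsb on the other strand, at 83.6 to 95.4 FPKM, and its q-values in the authors' deposited table were 0.688 or more in all 4 comparisons. Cyp51 and Srebf1 likewise share bases with Akap9 and Rai1. Ebp and Nsdhl lie on the X chromosome, where the sex difference named above falls together with genotype; their knockout ratios were 0.01 and 0.11 without drug and -0.03 and 0.13 with drug, and that of Ebp with drug turned above 0 with TPM values.

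The promoters of these enzymes are shown because all 18 sterol enzymes had drug ratios below 0 in both genotypes (with TPM values all but Sqle in wild type) and factors known to control such enzymes bind close to the start site. RefSeq windows on GRCm38.p6, from 250 bases before to 50 after a start site, were found for 28 of the 37 genes, 36 windows in all; Fdps, Fdft1, Sqle, Stard4, Npc1, Abcg1, Scd1, Scd2 and Fads1 had no entry. Hmgcs1 is printed because its window alone held the core of a sterol regulatory element, Mvd and Insig1 because they were at least 1.5-fold lower with drug in 1 genotype on the FPKM scale, calls that TPM values ended. Capitals mark that core, TCACNCCAC, and each CCAAT box of the factor NF-Y on either strand (ATTGG where it lies on the other strand).
Hmgcs1, chr13:119690101-119690400, plus strand: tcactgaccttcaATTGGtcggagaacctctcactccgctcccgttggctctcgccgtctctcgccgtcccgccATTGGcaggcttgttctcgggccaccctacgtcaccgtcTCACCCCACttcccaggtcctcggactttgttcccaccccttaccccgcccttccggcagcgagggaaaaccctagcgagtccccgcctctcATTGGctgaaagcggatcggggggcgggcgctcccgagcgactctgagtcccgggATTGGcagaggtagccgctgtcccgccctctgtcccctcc
Mvd, chr8:122443373-122443672, minus strand: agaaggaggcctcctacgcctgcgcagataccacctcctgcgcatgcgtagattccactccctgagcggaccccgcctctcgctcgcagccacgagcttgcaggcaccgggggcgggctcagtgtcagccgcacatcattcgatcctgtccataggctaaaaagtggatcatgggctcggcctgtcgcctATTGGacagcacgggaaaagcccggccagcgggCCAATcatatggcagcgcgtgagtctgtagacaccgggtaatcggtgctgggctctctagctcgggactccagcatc
Insig1, chr5:28071162-28071461, plus strand: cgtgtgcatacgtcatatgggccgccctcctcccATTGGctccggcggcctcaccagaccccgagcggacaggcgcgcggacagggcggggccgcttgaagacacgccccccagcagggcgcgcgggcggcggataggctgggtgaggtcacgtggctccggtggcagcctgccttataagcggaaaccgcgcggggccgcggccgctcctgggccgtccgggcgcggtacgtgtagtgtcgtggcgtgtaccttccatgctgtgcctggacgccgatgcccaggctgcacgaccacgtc

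In the Hmgcs1 window the core lies at bases -137 to -129, counted from the first transcribed base as 1, and 4 CCAAT boxes surround it. The Mvd window holds 2 CCAAT boxes, at -60 to -56 and -27 to -23, and the Insig1 window 1, at -216 to -212. Over all members, CCAAT was found in 22 of 36 windows (61.1%), against 37.4% of the 32851 promoter windows in the table, and in 9 of 11 windows of the squalene and sterol genes (81.8%). All 9 of those genes with an entry had it in at least 1 window. The Sp1 box GGGCGG was in 75.0% of member windows against 35.7% of all, and the E-box CACGTG in 19.4% against 7.15%. TTCNNNGAA, the letters bound by STAT factors, was in 1 of 36 windows (2.78%), that of Ebp, against 8.30% of all, and the sterol regulatory element core in 2.78% against 1.24%. Motifs were searched on both strands, and each was counted whether or not it overlapped another. Windows of the same gene can overlap, as those of Scap and some of Dhcr7 did. An E-box and an Sp1 box of Scap were thus counted in both of its windows. The 7 windows with an E-box belonged to 6 genes. Member windows were richer in G and C, with a median of 62.3% against 52.7% for all windows. A match is only a stretch of letters, and no match says nothing of a factor's binding elsewhere.

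**Figure D2:**
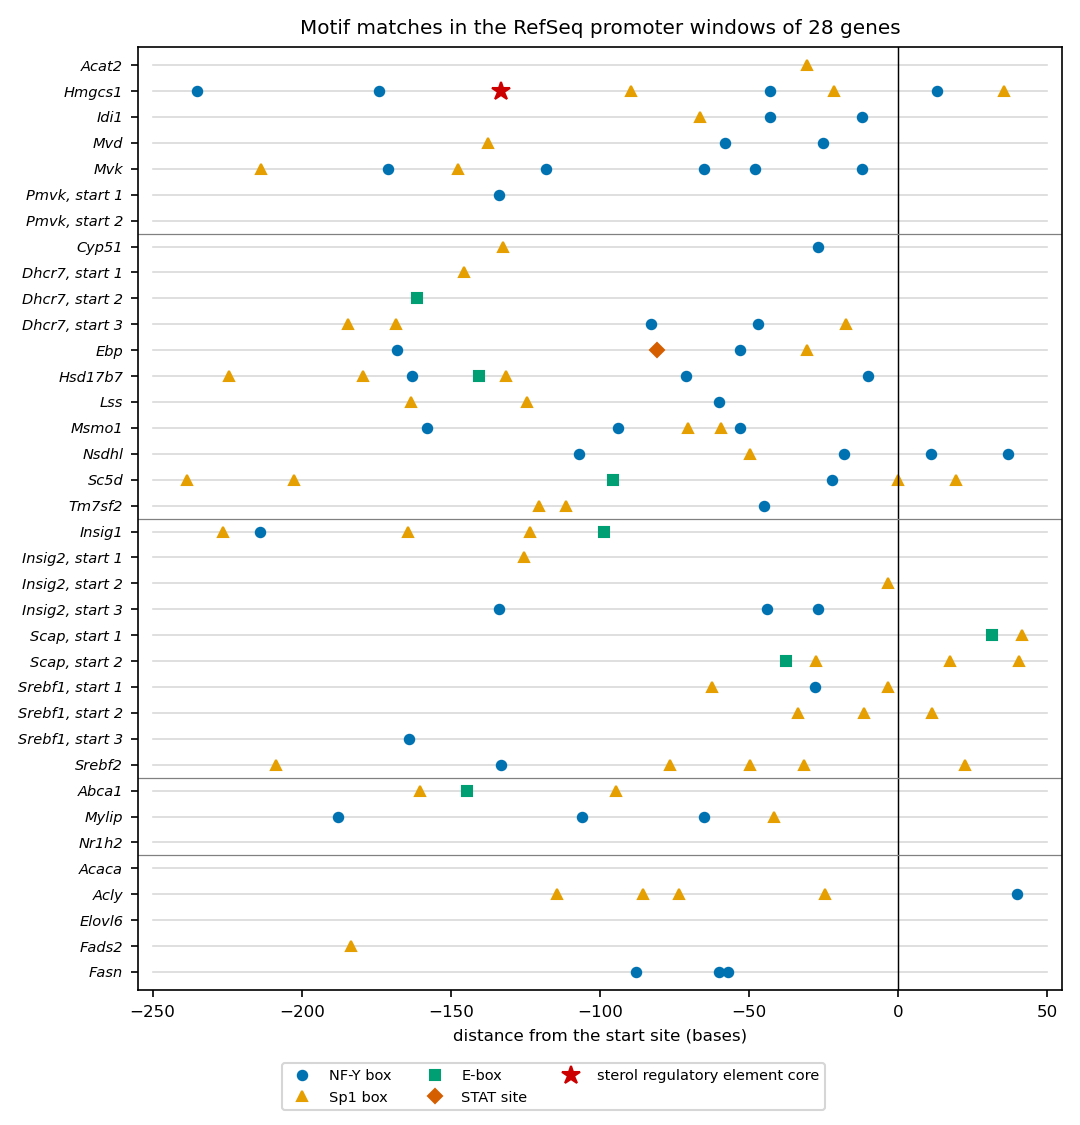
Position of each motif match in the 36 RefSeq promoter windows of 28 genes, as distance in bases from the start site (vertical line), with genes grouped by branch from top to bottom in the order of the plot of levels. Circles (CCAAT) recur in the mevalonate, squalene and sterol blocks, the star (sterol regulatory element core) appears once, in Hmgcs1, and the diamond (STAT letters) once, in Ebp.

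The genes that control SREBP had drug ratios near 0, except Insig1. Srebf1, which encodes the SREBP that favours fatty acid genes, was at 54.1 FPKM untreated and 50.6 treated in wild type and at 52.6 and 54.6 in knockout. Srebf2, whose product favours sterol genes, was at 71.6 and 69.3 FPKM in wild type and at 70.7 and 77.0 in knockout. Scap lay between 18.1 and 19.3 FPKM and Insig2 between 9.16 and 10.4. For these 4 genes the drug ratios ran from -0.09 to 0.05 in wild type and from 0.02 to 0.12 in knockout, and the lowest q-value in the authors' deposited table was 0.565, for Srebf2 in knockout against wild type with drug. Knockout ratios of these 4 genes ran from -0.11 to 0.02 without drug and from -0.07 to 0.15 with it. With TPM values the knockout ratios of Srebf1, Srebf2, Insig1 and Insig2 without drug turned above 0. With drug, the TPM ratios of Insig2, Scap, Srebf1 and Srebf2 were 0.06, 0.22, 0.24 and 0.28, beside a median of 0.13 for all measured genes.

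Insig1 (chromosome 5, 28071412 to 28078662), both a brake on SREBP and a known target of it, was at 74.8 FPKM untreated and 48.8 treated in wild type and at 69.8 and 60.9 in knockout. Treated wild-type cells were the lowest library and treated knockout cells the next, so both treated libraries lay below both untreated ones. The drug ratio was -0.61 in wild type, with a q-value of 0.000746 in the authors' deposited table, and -0.20 in knockout, with one of 0.398. The difference between those ratios, 0.41, was not tested and cannot be, with 1 library per group.

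Among sterol carriers and LXR genes the exporters had the largest ratios. Abcg1 (chromosome 17, 31057694 to 31117984), which exports cholesterol to lipoproteins, was at 9.76 FPKM untreated and 5.08 treated in wild type and at 5.83 and 3.16 in knockout. Drug and knockout each went with a lower level: the treated library held 52.0% of its control in wild type and 54.2% in knockout, and knockout held 59.7% of wild type without drug and 62.2% with it. Its log2 ratios were -0.82 and -0.71 for drug and -0.66 and -0.55 for knockout, and the q-value in the authors' deposited table was 0.000746 in all 4 comparisons. Abca1, the other exporter, was low throughout, at 1.67 FPKM untreated and 0.997 treated in wild type and at 0.481 and 0.491 in knockout. Both knockout libraries lay below both wild-type ones, at 28.9% of wild type without drug and 49.2% with it. The treated library held 59.9% of its control in wild type and 102% in knockout.

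Mylip, the LXR-induced ligase that removes lipoprotein receptors, was higher with drug in both genotypes: 10.7 FPKM untreated and 12.3 treated in wild type, and 7.94 and 10.1 in knockout. Its ratios were 0.19 and 0.31 for drug and -0.39 and -0.27 for knockout. Nr1h2, the LXR form that most tissues express, lay between 46.0 and 54.6 FPKM. The lysosomal exporter Npc1 lay between 21.6 and 23.6 FPKM, and Stard4, a soluble sterol carrier and SREBP target, was at 55.4 and 48.2 FPKM in wild type and at 56.6 and 52.0 in knockout. Stard4 had drug ratios of -0.20 and -0.12.

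Macrophages are rich in both exporters, and their markers were read beside these values. Of 7 macrophage markers 2 were measured, Adgre1 and Cd68, and the list summed to 42.8 and 38.0 FPKM in wild-type cells, against 26.7 and 24.8 in knockout. Adgre1 was at 4.23 FPKM untreated and 1.72 treated in wild type and at 5.34 and 2.70 in knockout, so it was lower with drug but not in knockout, and Cd68 was lower in knockout. C1qa, C1qb, Mrc1 and Marco did not exceed 0.313 FPKM in any library, and Marco was listed at 0 in all. C1qc was at 0.472 FPKM untreated and 0.974 treated in wild type and at 0.598 and 1.08 in knockout, higher with drug in both. The part of these cells in the Abca1 and Abcg1 values was not tested, and in bulk RNA fewer cells of a type and less RNA per cell cannot be told apart.

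Fatty acid genes split between steps. Scd1 (chromosome 19, 44394450 to 44407709), a desaturase that puts the first double bond into stearate and palmitate, had the largest drug ratio on the log2 scale of FPKM + 1 in both genotypes, level with Abcg1 in knockout when no pseudocount is used: 28.4 FPKM untreated and 14.2 treated in wild type, and 36.9 and 20.1 in knockout. Both treated libraries lay below both untreated ones, at 49.9% and 54.3% of control, with log2 ratios of -0.96 and -0.85. Scd2, its neighbour 87.6 kilobases away and the most abundant of the 37 genes, was at 239 and 174 FPKM in wild type and at 268 and 201 in knockout, with ratios of -0.46 and -0.42. The 2 genes are close relatives, so reads from shared stretches may have been assigned to either.

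Fasn, the synthase that assembles palmitate, differed with drug and little with genotype. It was at 72.3 FPKM untreated and 48.4 treated in wild type and at 73.3 and 49.6 in knockout, so the treated libraries held 66.9% and 67.7% of control while knockout and wild type differed by log2 ratios of 0.02 and 0.04. Acly, which supplies cytosolic acetyl-CoA, and Acaca, which makes malonyl-CoA, had smaller drug ratios, of -0.12 and -0.21 in wild type and -0.25 and -0.30 in knockout.

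Elovl6 (chromosome 3, 129532386 to 129638495), the elongase that extends palmitate, differed with genotype and little with drug. It was at 3.78 FPKM untreated and 4.08 treated in wild type and at 7.60 and 7.21 in knockout. Knockout held 201% of wild type without drug and 177% with it, log2 ratios of 0.85 and 0.69, while the drug ratios were 0.09 and -0.07. Fads2, a desaturase of polyunsaturated fatty acids, was at 83.3 and 71.9 FPKM in wild type and at 115 and 106 in knockout, knockout ratios of 0.46 and 0.55. Fads1, which acts after it and lies 81.4 kilobases away on chromosome 19, was at 51.2 and 55.1 FPKM in wild type and at 59.9 and 65.4 in knockout. Fads1 was one of 2 fatty acid genes above 0 for drug in wild type, beside Elovl6, and the sole such gene in knockout. Proliferation genes also separated the genotypes, with summed levels of 659 and 737 FPKM in wild-type cells, against 1061 and 1097 in knockout; their part in the knockout ratios of Elovl6, Fads2, Fdps and Acat2 was not tested.

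**Figure D3:**
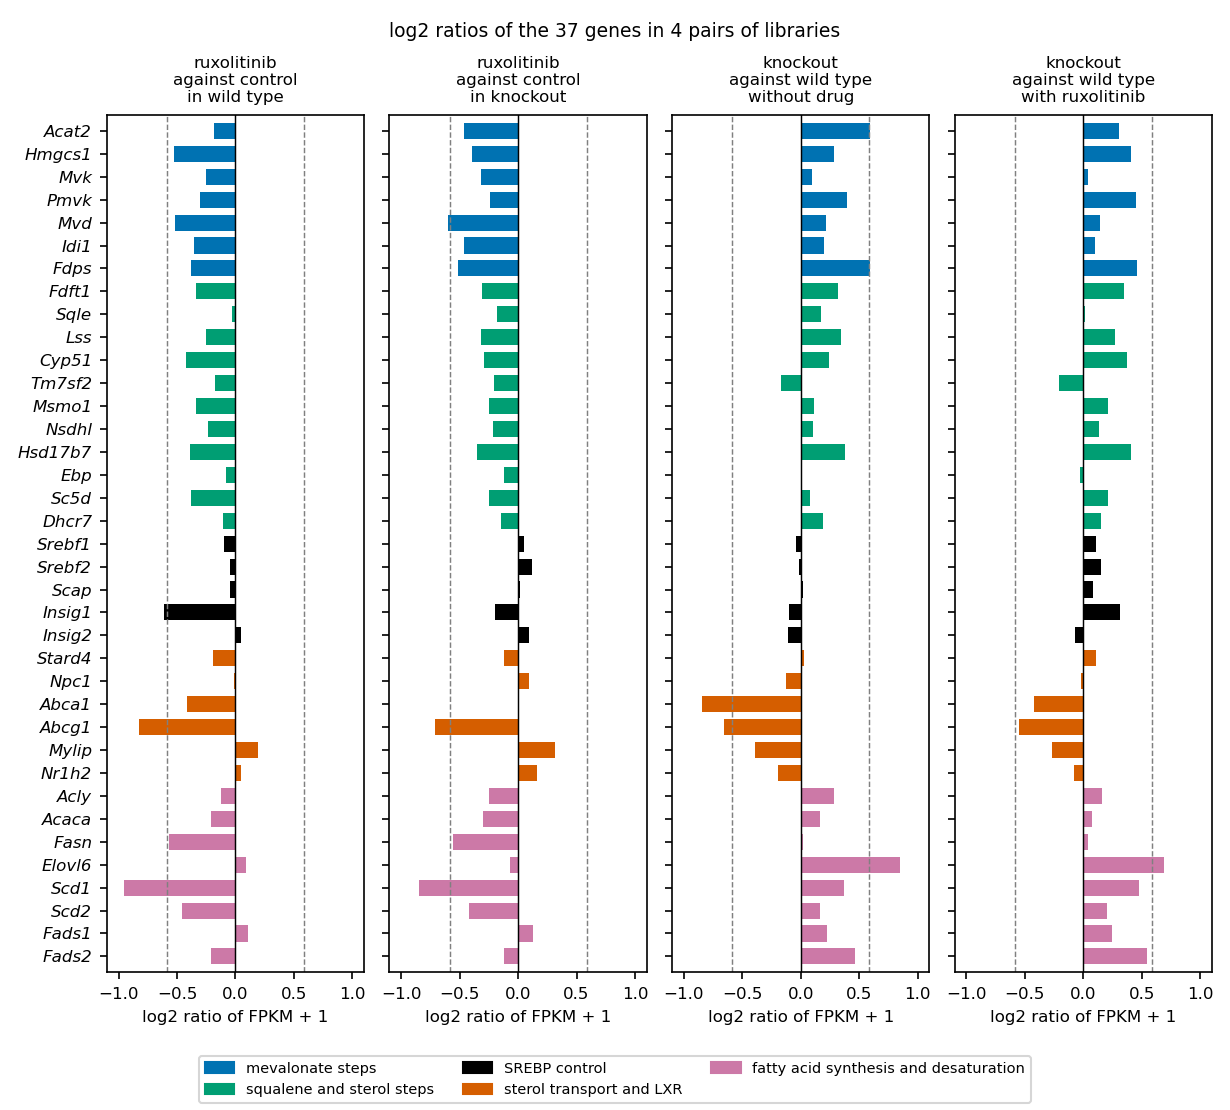
log2 ratio of FPKM + 1 for each of the 37 genes in the 4 comparisons of library pairs, with bars coloured by branch and dashed lines at the 1.5-fold rule. Sterol enzymes (top 2 colours) point left in both drug panels on this FPKM scale (with TPM, Sqle in wild type does not) and mostly right in both genotype panels, Scd1 and Abcg1 pass the dashed line in both drug panels, and Elovl6 passes it in both genotype panels.

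The drug ratios in the 2 genotypes share no library. Across the 37 genes, Pearson's r was 0.85 and Spearman's rho 0.80, beside 0.16 and 0.68 over all 10471 measured genes. The ratios had the same sign in both genotypes for 31 of the 37 genes (83.8%, against 76.1% of all measured genes), and 27 were lower in both (73.0%, against 36.5%). For knockout against wild type, without drug and with it, r was 0.91 and rho 0.85 over the members and 0.34 and 0.80 over all measured genes. There too the ratios of all measured genes ran far wider than those of the members. These are descriptions across genes measured in the same 4 libraries, and genes are not independent replicates.

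Subtracting the wild-type drug ratio from the knockout one left small values. None of 36 members differed by 1.5-fold or more upward (1.82% of all genes) or downward (1.14%), 13 were below 0 (52.6% of all genes), and the median was 0.04. Insig1, at 0.41, and Acat2, at -0.29, were the extremes among measured members; Abca1 stood at 0.43. All 5 SREBP control genes and all 5 measured transport genes had differences above 0, whereas the 18 synthesis enzymes were split, with 10 below and 8 above.

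**Figure D4:**
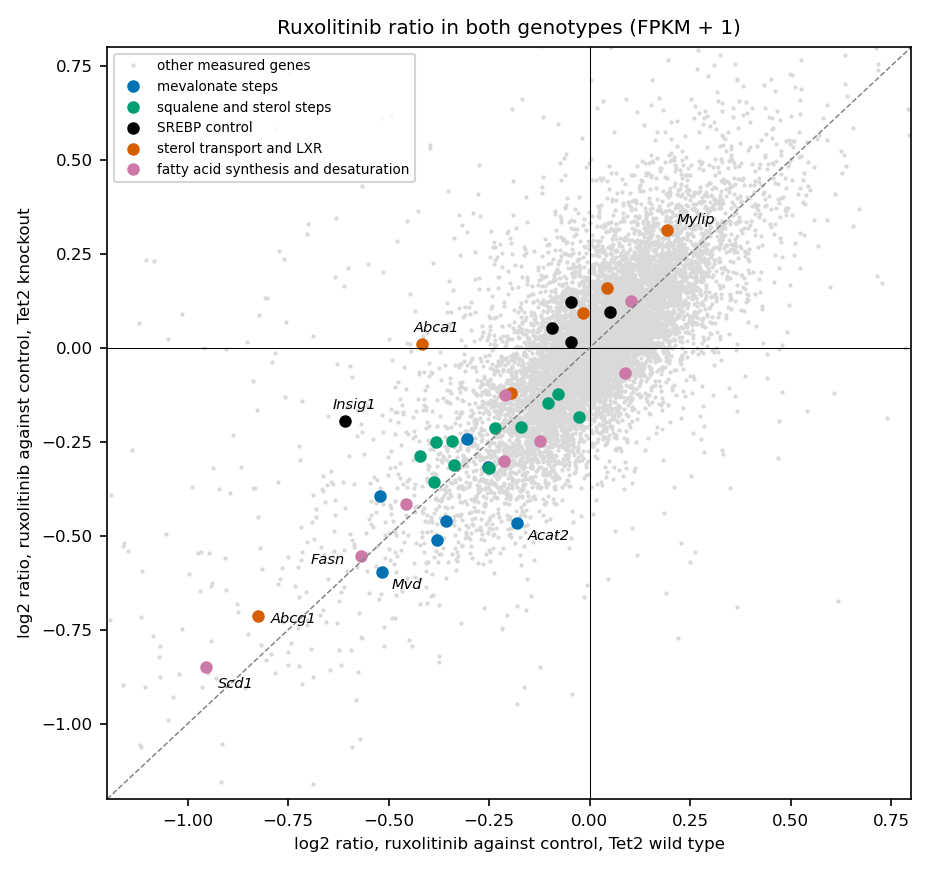
log2 ratio of ruxolitinib against control in wild type (x axis) and in knockout (y axis) for the 37 genes, coloured by branch, over the other measured genes within these axes in grey; the dashed line marks equal ratios. Most members sit in the lower left near the line, Scd1 and Abcg1 farthest along it, while Insig1 and Abca1 lie above it.

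The synthesis enzymes as a block can be read against all genes in the cumulative plot. Their 18 drug ratios had a median of -0.32 in wild type and -0.30 in knockout, where all measured genes had 0.01 and 0.00, and all 18 lay below 0 in both, with the exception of Sqle in wild type when TPM values were used. Their knockout ratios had a median of 0.21 in both drug states, with 17 of 18 above 0 without drug and 16 of 18 with it. All measured genes had knockout medians of 0.00 in both, with 49.1% and 49.3% below 0. With TPM values the enzyme medians were 0.37 without drug and 0.35 with it, with 17 of 18 above 0 in both. All measured genes then had medians of 0.15 and 0.13, with 29.4% and 27.4% below 0. Their summed level was 889 FPKM untreated and 729.6 treated in wild type, and 1046 and 846 in knockout.

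**Figure D5:**
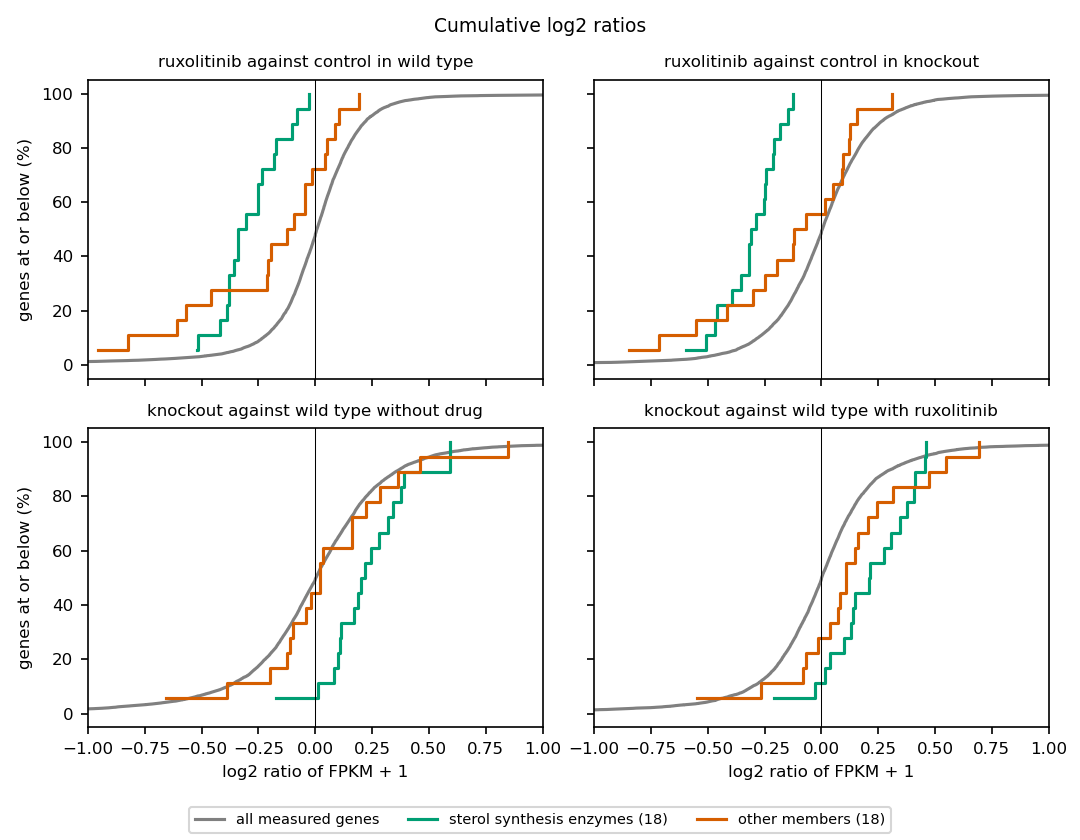
Share of genes (y axis, percent) at or below each log2 ratio (x axis) in the 4 comparisons, for all measured genes (grey), the 18 sterol synthesis enzymes (green) and the 18 other measured members (orange). The middle of the green steps lies left of the grey curve in both drug panels, at -0.32 and -0.30, and right of it in both genotype panels, at 0.21.

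Other genes around the pathway, from a fixed list of 65 of which 57 were measured, had medians near 0. For drug against control, 30 of 57 were below 0 in wild type and 34 of 57 in knockout (47.7% and 48.7% of all genes), with medians of -0.01 and -0.04. For knockout against wild type the medians were 0.01 without drug and -0.01 with it. At 1.5-fold or more, 1 was higher and 2 lower without drug (3.88% and 5.06% of all genes), and 1 higher and 0 lower with drug (2.97% and 3.34%). For drug against control, 0 were that far higher or lower in wild type (1.05% and 2.64% of all genes). In knockout 1 was higher and 0 lower (1.67% and 2.20%). The largest ratio was that of Apoe, the lipoprotein that takes up exported sterol, at 2.81 FPKM untreated and 3.49 treated in wild type and at 10.4 and 12.4 in knockout, a log2 ratio of 1.58 in both drug states. Rxra, a partner receptor of LXR, was at 4.19 and 6.46 FPKM in wild type and at 2.28 and 4.18 in knockout, higher with drug by 0.52 and 0.66. Lpin1, a phosphatase of glycerolipid synthesis, was at 22.6 and 23.6 FPKM in wild type and at 13.9 and 18.1 in knockout, and Acss2, which makes acetyl-CoA from acetate, was higher with drug by 0.31 and 0.50.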

How the data were processed

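RNA depleted of ribosomal RNA was sequenced from 4 libraries, 1 per group, assigned by the titles in the labels. STAR, Cuffdiff and the build mm10 are named per the submitters' processing notes. Their versions, and the gene annotation, were not given in the sources used here. For 24340 gene symbols the authors deposited FPKM values, and any scaling between libraries is not stated. The authors' deposited comparison table holds log2 fold changes without a pseudocount and q-values (adjusted p-values) for pairs of single libraries; 4 of its 6 pairs were used. The same table repeats each library's level in 2 columns, which stayed unused. All 37 members had a usable estimate there in the 4 pairs.

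Ratios were log2(FPKM + 1). A gene was taken as measured when its mean reached 1 FPKM, which left 10471 genes, and 1.5-fold was the rule for counts. With 1 library per group no p-value was computed. Members, branches and lists were chosen with earlier results of these data known. Full values are given for members at 1.5-fold or more in any pair, the most abundant gene of each branch and the SREBP control genes; other members given with values were chosen after those were seen. Of the other pathway genes, the 4 with the largest absolute ratio were named.

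Depth was estimated from steps of low values in genes with 1 transcript over 1500 bases, less 200 bases; 75.0% to 84.8% of values set aside lay within 0.15 of a whole multiple. These totals include any scaling by Cuffdiff and are no counts. Exon overlaps came from GENCODE M21, gene coordinates and promoters from RefSeq GRCm38.p6. The last 25 bases of 33 of 36 promoter windows lay in a GENCODE transcript of the gene. Proteins were not analysed here. The software was matplotlib 3.10.9 and scipy 1.17.1 with pandas 2.3.3 and numpy 2.4.6 under Python 3.11.15. Other settings tried were pseudocounts of 0.1 and 5, no filter, a filter of 5 FPKM, TPM, centred ratios, a 2-fold rule and the authors' fold changes; leaving out X-linked or overlapping members was added after seeing the data.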

Additional observations from a re-analysis of the deposited data

Results flagged for a closer look

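On the FPKM scale, for 8 genes the ratio pointed in opposite directions in the 2 genotypes or in the 2 drug states. With 1 library per group none of these differences was tested, and values near 0 change sign easily. The knockout drug ratio minus the wild-type one was 0.43 for Abca1 and 0.41 for Insig1, the widest gaps. For Srebf2 it was 0.17, for Srebf1 0.15, for Npc1 0.11 and for Scap 0.0622. Elovl6, at -0.16, and Ebp, at -0.0444, had the opposite sign. The set depends on the scaling: with TPM values Insig1, Ebp and Npc1 no longer pointed in opposite directions, while Sqle and Nr1h2 did.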

How the results depend on the processing

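No paired analysis was possible because each group holds 1 library. Of 130 values recomputed under other settings (medians and counts of members in 5 comparisons), 114 moved by at most 0.1 (medians) or 1.5-fold (counts) and 16 by more; none changed sign. Rescaled to TPM, the knockout median was 0.31 without drug and 0.28 with it, with 0 members lower without drug and 5 higher with it; TPM moved the median of all measured genes to 0.15 and 0.13. A pseudocount of 5 FPKM left 0 members higher and 0 lower in knockout without drug, 0 higher with drug, and 1 lower with ruxolitinib in each genotype. At 2-fold those 5 counts were all 0. A pseudocount of 0.1 gave 1 member lower in knockout with drug, and no filter gave 2 lower without drug, since Abca1 then entered. Leaving out the X-linked members or those with overlapping exons, both added after seeing the data, moved no value by more than these limits, nor did a filter of 5 FPKM or centring. The authors' deposited table, without a pseudocount, gave the same sign for all 148 ratios of members; 10 differed by more than 0.1, the most for Abca1 in knockout without drug, at -1.79 in place of -0.85. Genes of few FPKM, such as Abca1 and Idi1, are those whose ratios the pseudocount compresses. The 1.5-fold counts rest on 0 to 3 genes each.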

Other observations

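Lists next to the pathway are given by their counts. Of the 11 genes of fatty acid elongation and activation, 9 were below 0 for ruxolitinib in wild type and 10 in knockout (47.7% and 48.7% of all genes), with medians of -0.09 and -0.16, and the knockout medians were 0.12 without drug and 0.09 with it. Of the 10 measured genes of sterol esterification and trafficking, 3 were below 0 for drug in wild type and 1 in knockout, with medians of 0.06 and 0.10. In both lists 0 genes were 1.5-fold higher or lower in any of the 4 comparisons, beside 1.05% to 5.06% of all genes per direction and comparison. Soat1, which esterifies cholesterol for storage, was at 23.0 FPKM untreated and 27.0 treated in wild type and at 26.3 and 35.2 in knockout. The 8 fatty acid oxidation genes had 4 and 6 members below 0 for drug in wild type and knockout, and Cpt1a, which admits fatty acids to mitochondria, was at 20.7 and 27.2 FPKM in wild type and at 19.2 and 27.4 in knockout. Me1, a source of NADPH for fatty acid synthesis, was at 7.93 and 5.50 FPKM in wild type and at 6.07 and 4.20 in knockout, the lower value in each pair being the treated one. Soat1, Cpt1a and Me1 were chosen after their values were seen.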
